A study of Homo sapiens with 12 samples.

Results

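The NRF2 antioxidant genes described here are 9 genes, NFE2L2, TXNRD1, SRXN1, GCLC, GCLM, NQO1, ME1, HMOX1 and OSGIN1, taken by symbol from a table of 58735 genes. Each symbol matched 1 gene. The genes were measured by RNA sequencing in 12 libraries of MSTO-211H, an established human mesothelioma line, which the submitters grew in suspension in RPMI with SM1, EGF, bFGF and heparin and call mesothelioma-initiating. All 4 groups are this 1 line in this medium, with 3 libraries each, collected 48 h after irradiation or sham exposure. Con received vehicle and sham exposure, and IR received vehicle and 4 Gy. Rx was read as 10 µM QTP with sham exposure and Combo as 10 µM QTP the day before 4 Gy, since the design text has these 4 arms and the titles name the groups only as Con, IR, Rx and Combo. The labels give no fuller name for QTP, and the series title speaks of dopamine receptor inhibition with radiotherapy, so the comparisons set either treatment and the pair of them against the untreated line. Whether a group's libraries are separate cultures is not stated, so p-values measure only how these libraries vary, and that variation may be technical.

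NFE2L2 encodes NRF2, a transcription factor of the basic leucine zipper class. In unstressed cells the adaptor protein KEAP1 holds NRF2 and feeds it to a CUL3 ubiquitin ligase, so that its amount is set mainly by protein breakdown and not by its mRNA. Oxidants and electrophiles modify KEAP1, NRF2 accumulates, pairs with a small MAF protein and binds antioxidant response elements near genes for the thioredoxin, glutathione, NADPH and haem systems. Stretches of promoter that hold the core of this element are shown here because they are the sequence feature that names the gene set, and the rule that chose the 9 genes did not use them. The core searched was TGACNNNGC on both strands, in the 250 bases before each RefSeq gene start (GRCh38.p14). Windows were at hand for 8 of the 9 genes, 10 windows in all, and 4 of them, in GCLM, ME1 and TXNRD1, held the core. Of all 35116 RefSeq windows 10.9% held it. The match is in capitals, written 5′ to 3′ along the gene's strand.
GCLM: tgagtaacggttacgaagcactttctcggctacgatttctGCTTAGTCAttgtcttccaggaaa
ME1: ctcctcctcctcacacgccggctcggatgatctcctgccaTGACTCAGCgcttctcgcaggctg
TXNRD1: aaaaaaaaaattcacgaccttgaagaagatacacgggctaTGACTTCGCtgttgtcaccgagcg
The GCLM stretch is chr1:93909441-93909504 on the minus strand, and its match begins 34 bases before the start, in the opposite orientation. The ME1 stretch is chr6:83431165-83431228 on the minus strand, with the match 137 bases before the start. That match also holds TGACTCA, a form of the AP-1 core TGANTCA, which 6.57% of all windows hold. The TXNRD1 stretch is chr12:104215640-104215703 on the plus strand, with the match 99 bases before the start, and a second TXNRD1 start held GCTTTGTCA 102 bases upstream. The OSGIN1 window held the AP-1 core alone, and the windows of NFE2L2, GCLC, NQO1 and SRXN1 held no match to either, which says only that these letters are not in these windows.

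Whole reads recovered from the deposited FPKM (reads scaled to gene length and library) summed to 13188257 to 18630958 per library. Each Combo library (17441486 to 18630958 reads) was deeper than each Con (13188257 to 16269195) and IR library (14216186 to 15641746). On the first principal component of all tested genes, which held 26.5% of the variance, the extremes were IR 3 (28.7) and Combo 3 (-21.5). Some values of the genes described here are therefore also given without them. Of 16 mesothelial markers 8 averaged at least 1 FPKM, among them MSLN, CALB2 and KRT8, while WT1 averaged 0.955 and PDPN was at 0 in all 12 libraries. The summed level of these 16 was 1068 to 1342 FPKM in Con, 1069 to 1461 in IR, 979.5 to 1286 in Rx and 729 to 1077 in Combo. A large part of this sum was the keratin KRT18, which alone averaged 549 FPKM over all libraries. Of 16 markers of immune, endothelial, fibroblast, blood and epithelial cells, 12 averaged under 0.1 FPKM, and the immune genes CD3E and LYZ were at 0 in every library. For these other markers the sum was 10.4 to 12.7 FPKM in Con and 9.88 to 13.3 in Rx, and 12.3 to 14.6 in IR and 12.8 to 14.6 in Combo, of which COL1A1, LUM, PDGFRB and ACTA2 were the 4 above 1 FPKM. The part of these markers and of depth in the results was not tested.

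Of the 9 genes, 0 reached an adjusted p below 0.05 in the 8 comparisons made, in limma fits of log2(FPKM + 1). These fits covered the 13038 genes averaging 1 FPKM or more, and all 9 genes were among them, OSGIN1 with a Con mean below that level. With both treatments together, TXNRD1, HMOX1, OSGIN1 and GCLM had higher values in each Combo library than in each Con library, SRXN1 had lower ones, and NFE2L2, NQO1 and GCLC overlapped Con and differed from it by about 1 standard error or less. In such bulk RNA, fewer cells expressing a gene and less of its RNA per cell cannot be told apart. TXNRD1 was 1.47 times its Con mean in Combo, HMOX1 1.44 times, OSGIN1 1.48 times and GCLM 1.27 times. Among all tested genes 10.0% were higher and 12.8% lower without overlap in Combo against Con, beside 4 and 1 of these 9. At an unadjusted p under 0.05, limma gave 4 of the 9 as higher, against 5.49% of all tested genes as higher. OSGIN1 is in both counts of 4, and it passed the filter only through the treated groups, where its means were higher. The 9 genes were also chosen with earlier results of these data known, so these counts describe them and are not support. Without a replicate block, the adjusted test called 0% of the tested genes here and in each other comparison except QTP averaged over both radiation arms (0.0920%), and limma voom on recovered reads likewise called 0 genes outside that one. With a block for the replicate number, limma called 90 genes in Combo against Con and 3 for radiation averaged, with 0 of the 9 among them. The labels do not say what this number marks. Unadjusted, in either direction, 6.86% of genes were under 0.05 when IR was set against Con, 3.26% for Rx and 13.2% for Combo. When Combo was set against IR the share was 17.5%, against Rx it was 9.11%, and for the interaction and the QTP and radiation averages it was 7.63%, 11.4% and 8.51%.

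**Figure D1:**
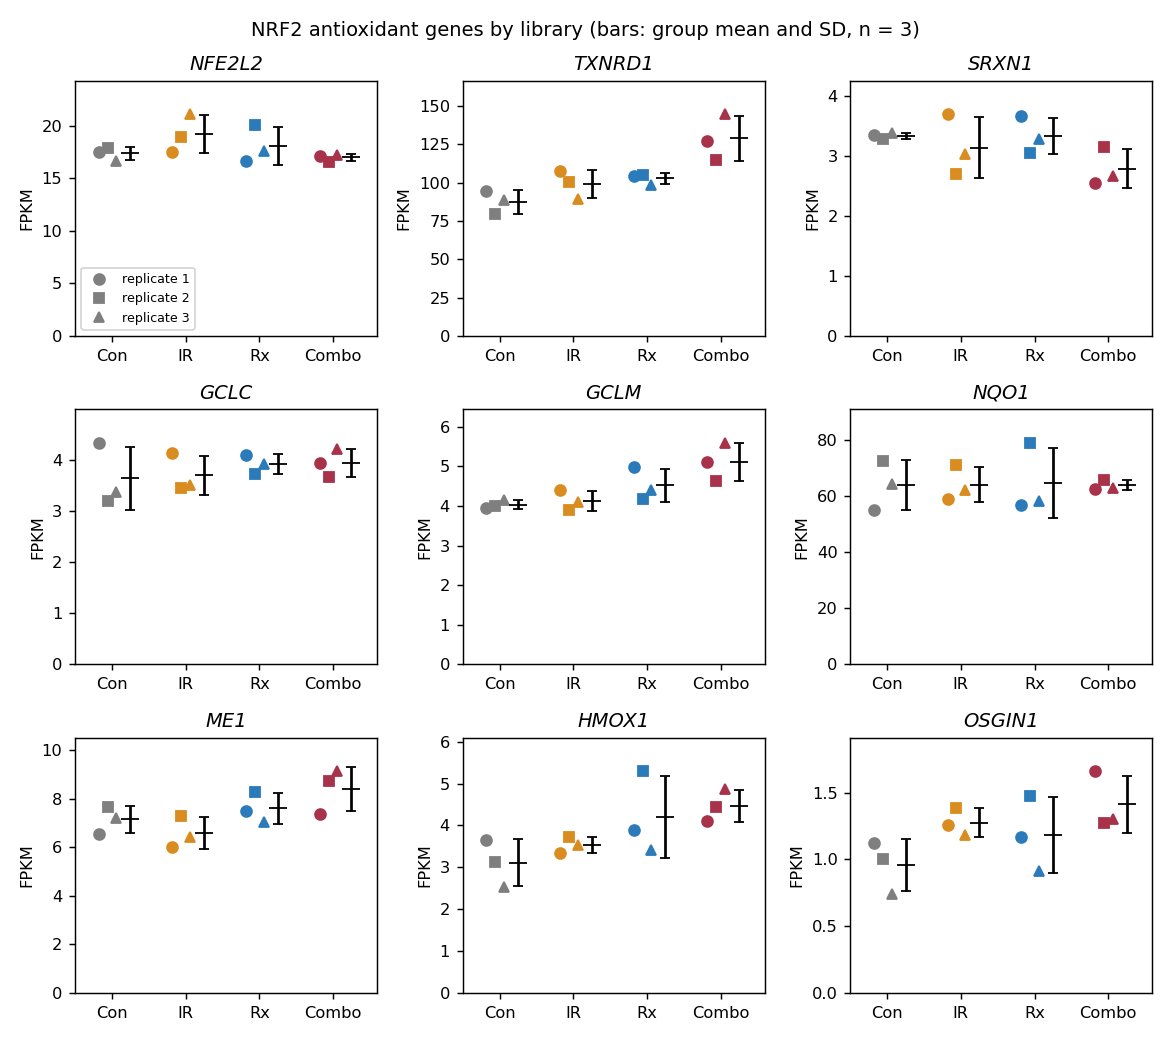
FPKM of the 9 genes in each of 12 libraries, with 1 panel per gene, the 4 groups on the x axis and FPKM from 0 on the y axis; symbols mark replicates 1 to 3, and the bars are group mean and SD (n = 3). The 3 TXNRD1 values of Combo, 115 to 144 FPKM, lie above the other 9 libraries, while NFE2L2 lies between 16.6 and 21.1 FPKM throughout.

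In Con, TXNRD1 (87.5 ± 7.75 FPKM, SD, n = 3) and NQO1 (64.0 ± 8.81) were the most abundant per length, and their libraries did not overlap. NFE2L2 came next at 17.4 ± 0.649 FPKM and ME1 at 7.15 ± 0.573 (SD, n = 3). GCLM (4.04 ± 0.109), GCLC (3.64 ± 0.612), SRXN1 (3.33 ± 0.0512) and HMOX1 (3.11 ± 0.557) followed, and each overlapped its neighbour in this order, while GCLM lay wholly above SRXN1 and HMOX1. OSGIN1 was lowest at 0.955 ± 0.195 FPKM. Against all tested genes, the 12-library mean of TXNRD1 was at the 97.8th percentile, that of NQO1 at the 96.1st, that of NFE2L2 at the 81.9th and that of OSGIN1 at the 4.91st. The reads behind these levels ran from 7876 to 18532 per library for TXNRD1, but from 81 to 232 for HMOX1 and from 34 to 101 for OSGIN1. Counting error alone, as a coefficient of variation at the mean reads, is 0.924% for TXNRD1 and 8.04% for HMOX1, beside spreads between libraries of a group of 9.31% and 15.7%.

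The regulator's own mRNA, NFE2L2 (ENSG00000116044, chromosome 2, 177227595 to 177392697, hg38), was at 17.5, 17.9 and 16.7 FPKM in Con 1 to 3. In IR it was at 17.5, 19.0 and 21.1, in Rx at 16.6, 20.1 and 17.6, and in Combo at 17.2, 16.6 and 17.2 FPKM. All groups overlapped Con, while the Combo libraries lay below the IR ones. The differences of mean log2(FPKM + 1) from Con were 0.13 (SE 0.08) in IR, 0.05 (SE 0.08; -0.03 under TPM) in Rx and -0.03 (SE 0.08, 95% interval -0.21 to 0.15) in Combo, with limma adjusted p of 0.758, 1.00 and 0.904. Combo against IR was -0.16 (SE 0.08), with limma adjusted p = 0.322, and 11.6% of tested genes were lower without overlap in that comparison. Without IR 3 and Combo 3 this difference was -0.10. The gene model overlaps AGPS on the opposite strand (mean 11.62 FPKM over all libraries). On its own strand it overlaps AC019080.5 (2.27), MIR6512 (1.48) and AC019080.1 (1.01), which a strand setting would not separate. The strand setting of the authors' counting is not given in the sources used here, so shared reads cannot be told apart.

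TXNRD1 encodes cytosolic thioredoxin reductase, the NADPH-dependent selenoprotein that recharges thioredoxin (ENSG00000198431, chromosome 12, 104215779 to 104350305). It was at 94.7, 79.3 and 88.5 FPKM in Con 1 to 3, at 107, 100.5 and 89.2 in IR, at 105, 105 and 98.5 in Rx and at 127, 115 and 144 in Combo. Rx and Con did not overlap, IR and Con did, and Combo lay above every other library. Against Con, the log2 difference was 0.18 (SE 0.10) in IR, 0.23 (SE 0.10) in Rx and 0.55 (SE 0.10, 95% interval 0.33 to 0.77) in Combo, with limma adjusted p of 0.749, 1.00 and 0.122. Without Con 2 the IR value was 0.11. In Combo against Con it ranked 15th of 13038 genes by p. Combo exceeded IR by 0.37 (SE 0.10, limma adjusted p = 0.171) and Rx by 0.32 (SE 0.10, limma adjusted p = 0.545). The background of genes higher without overlap was 4.60% in Rx against Con, 8.53% in Combo against IR and 8.26% in Combo against Rx. The interaction, by which the joint difference exceeds the sum of the single ones, was 0.14 (SE 0.14, 95% interval -0.17 to 0.46, limma adjusted p = 0.749), so the joint value was not separated from the sum of both. Averaged over the other treatment, the difference was 0.30 (SE 0.07, limma adjusted p = 0.163) for QTP and 0.25 (SE 0.07, limma adjusted p = 0.386) for radiation.

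The TXNRD1 difference between Combo and Con was 0.55 to 0.64 under the 3 other scalings (TPM, median of ratios, quantiles) and 0.57 with limma voom on the recovered reads, where depth enters as a weight. Without Combo 3, the library with the highest value, it was 0.46, and without IR 3 and Combo 3 the interaction was -0.02. Without IR 1, limma called 956 genes in Combo against IR, TXNRD1 among them (0.43, adjusted p = 0.0429; range over the alternatives 0.0429 to 0.999), whereas without IR 3 and Combo 3 the difference was 0.22. RPL18AP3, a ribosomal protein pseudogene, lies inside the TXNRD1 gene on the same strand. None of its 528 bases falls in a TXNRD1 exon of GENCODE 29 (0 bases). Its Combo mean was 203 ± 24.7 FPKM against 225 ± 14.7 in Con (SD, n = 3), the opposite direction to TXNRD1. The TXNRD1 gene also overlaps AC089983.1 on the opposite strand (mean 10.99 FPKM over all libraries) and EID3 on the same strand (1.89). Whether these share reads with TXNRD1 was not tested.

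SRXN1 encodes sulfiredoxin, which restores over-oxidised peroxiredoxins (ENSG00000271303, chromosome 20, 646615 to 653370). It was at 3.34, 3.28 and 3.38 FPKM in Con 1 to 3, at 3.69, 2.69 and 3.02 in IR, at 3.66, 3.05 and 3.28 in Rx and at 2.55, 3.15 and 2.66 in Combo. Each Combo library was below each Con library, in the opposite direction to TXNRD1. The log2 differences from Con were -0.07 (SE 0.10) in IR, -0.00 (SE 0.10, 95% interval -0.22 to 0.21; above 0 with quantiles) in Rx and -0.20 (SE 0.10) in Combo, and Combo against Rx was -0.19 (SE 0.10), with limma adjusted p of 0.874, 1.00, 0.416 and 0.559.

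Glutathione is made from glutamate and cysteine by glutamate-cysteine ligase, in which GCLC is the catalytic and GCLM the modifier subunit. GCLM (ENSG00000023909, chromosome 1, 93885205 to 93909456) was at 3.95, 4.00 and 4.16 FPKM in Con 1 to 3 and at 4.40, 3.89 and 4.11 in IR. In Rx it was at 4.97, 4.18 and 4.40, and in Combo at 5.10, 4.63 and 5.60. Both QTP groups lay above Con without overlap, Combo also lay above IR, and IR overlapped Con. The log2 differences from Con were 0.03 (SE 0.08; -0.07 under TPM) in IR, 0.13 (SE 0.08) in Rx and 0.28 (SE 0.08, 95% interval 0.10 to 0.45) in Combo, with limma adjusted p of 0.955, 1.00 and 0.192. Combo against IR was 0.25 (SE 0.08, limma adjusted p = 0.181), Combo against Rx 0.15 (SE 0.08, limma adjusted p = 0.565) and the interaction 0.12 (SE 0.11, limma adjusted p = 0.726). Without Combo 3 the difference of Combo from Con was 0.22, and without Rx 1 that of Rx was 0.071. QTP averaged over both radiation arms gave 0.19 (SE 0.06, limma adjusted p = 0.282).

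GCLC (ENSG00000001084, chromosome 6, 53497341 to 53616970) did not separate the groups: it ran from 3.20 to 4.34 FPKM in Con and 3.45 to 4.14 in IR, and with QTP from 3.72 to 4.10 in Rx and 3.68 to 4.22 in Combo. Its log2 differences from Con were 0.02 (SE 0.10; -0.07 under TPM) in IR, 0.09 (SE 0.10) in Rx and 0.10 (SE 0.10, 95% interval -0.12 to 0.31) in Combo, with limma adjusted p of 0.970, 1.00 and 0.695. Without Con 2 the Rx and Combo values were 0.023 and 0.031, and without Con 1 they were 0.20 and 0.20. The ratio of GCLM to GCLC, both per length, was 0.909 to 1.25 in Con and 1.06 to 1.17 in IR, and with QTP 1.12 to 1.21 in Rx and 1.26 to 1.33 in Combo. The Combo libraries had the highest ratios of the 12, with Con 2 (1.25) next to them, and this ratio was chosen after its values were seen.

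NQO1 encodes a quinone reductase that uses NADH or NADPH (ENSG00000181019, chromosome 16, 69706996 to 69726951). It ran from 55.0 to 72.7 FPKM in Con and 58.9 to 71.1 in IR, and with QTP from 57.0 to 79.0 in Rx and 62.7 to 65.9 in Combo, and the group means lay between 63.9 and 64.8 FPKM. The log2 differences from Con were 0.01 in each of IR, Rx and Combo (SE 0.13), with limma adjusted p of 0.993, 1.00 and 0.990, and in IR and Rx the sign flips under TPM and with quantiles. The 95% interval for Combo, -0.28 to 0.30, leaves room for a difference of either sign.

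ME1 encodes cytosolic malic enzyme, which makes NADPH from malate (ENSG00000065833, chromosome 6, 83210389 to 83431071). It was at 6.54, 7.68 and 7.22 FPKM in Con 1 to 3, at 6.03, 7.30 and 6.41 in IR, at 7.52, 8.27 and 7.03 in Rx and at 7.39, 8.72 and 9.14 in Combo. Combo lay above IR without overlap, while IR, Rx and Combo each overlapped Con. The log2 differences from Con were -0.11 (SE 0.10) in IR, 0.08 (SE 0.10; -0.00 under TPM) in Rx and 0.21 (SE 0.10) in Combo, with limma adjusted p of 0.808, 1.00 and 0.384. Without IR 1 the IR value was -0.053, and without Rx 2 the Rx value was 0.024. Combo against IR was 0.31 (SE 0.10, limma adjusted p = 0.178), Combo against Rx 0.13 (SE 0.10, limma adjusted p = 0.641) and the interaction 0.23 (SE 0.13, limma adjusted p = 0.617). Averaged over both radiation arms, QTP gave 0.20 (SE 0.07, limma adjusted p = 0.345).

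HMOX1 encodes haem oxygenase 1, which opens haem to biliverdin, iron and carbon monoxide (ENSG00000100292, chromosome 22, 35380361 to 35394214). It was at 3.65, 3.13 and 2.54 FPKM in Con 1 to 3, at 3.33, 3.72 and 3.54 in IR, at 3.88, 5.29 and 3.42 in Rx and at 4.11, 4.43 and 4.87 in Combo. Combo lay above Con and above IR without overlap, and Rx 2 was the highest of all. The log2 differences from Con were 0.15 (SE 0.13) in IR, 0.33 (SE 0.13) in Rx and 0.42 (SE 0.13, 95% interval 0.13 to 0.71) in Combo, with limma adjusted p of 0.802, 1.00 and 0.230. Without Rx 2 the Rx value was 0.19, and without Con 3 the IR value was 0.047. Combo against IR was 0.27 (SE 0.13, limma adjusted p = 0.309) and Combo against Rx 0.09 (SE 0.13, limma adjusted p = 0.813). Averaged over both radiation arms, QTP gave 0.30 (SE 0.09, limma adjusted p = 0.302).

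OSGIN1 encodes an oxidative stress induced growth inhibitor (ENSG00000140961, chromosome 16, 83948282 to 83966332). It was at 1.12, 1.00 and 0.741 FPKM in Con 1 to 3, at 1.26, 1.39 and 1.18 in IR, at 1.17, 1.48 and 0.909 in Rx and at 1.66, 1.27 and 1.30 in Combo. Both irradiated groups lay above Con without overlap, and Rx did not. In IR against Con 5.56% of tested genes were higher without overlap, and OSGIN1 was the 1 gene of these 9. Its Con mean was below the filter, which it passed only through the treated groups. The log2 differences from Con were 0.22 (SE 0.13) in IR, 0.16 (SE 0.13) in Rx and 0.30 (SE 0.13) in Combo, with limma adjusted p of 0.748, 1.00 and 0.348. Without Con 3 the IR value was 0.14, and without Rx 2 the Rx value was 0.063. Averaged over both QTP arms, radiation gave 0.18 (SE 0.09, limma adjusted p = 0.620). On this scale the change of a gene near 1 FPKM is understated.

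**Figure D2:**
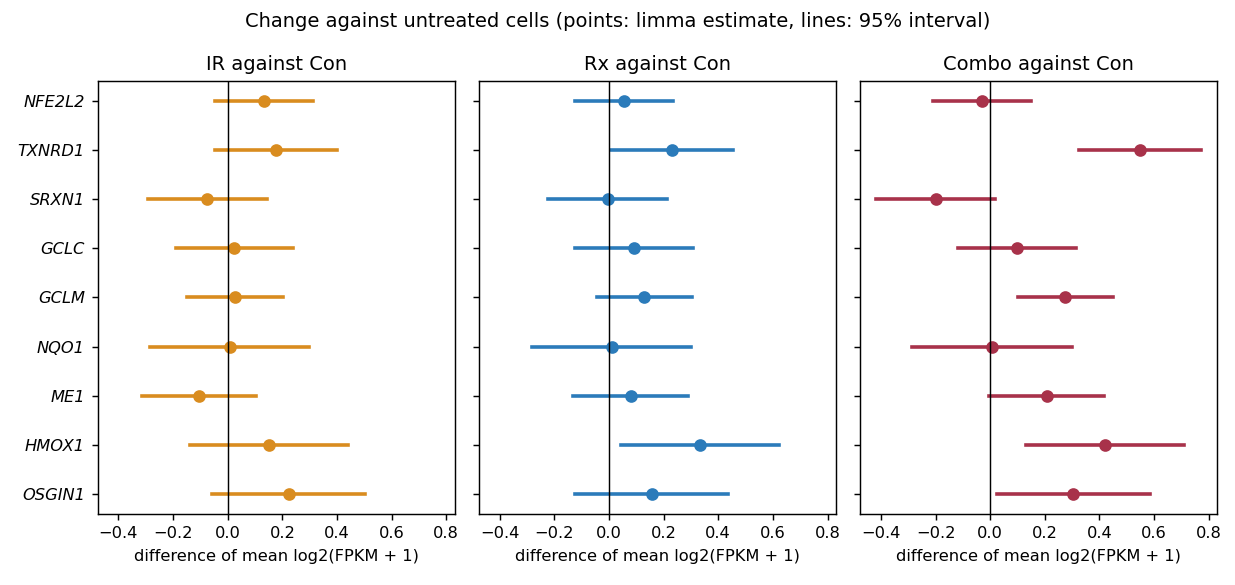
Differences of mean log2(FPKM + 1) from Con for the 9 genes, in 1 panel each for IR, Rx and Combo; points are limma estimates and lines their 95% intervals, not adjusted for the number of genes. In Combo the intervals of TXNRD1, HMOX1, GCLM and OSGIN1 lie above 0 and those of the other 5 genes include 0.

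Counted together, 7 of the 9 mean log2 values were higher than Con in IR (median difference 0.03), 8 in Rx (0.09) and 7 in Combo (0.21). Over all tested genes 52.6%, 51.7% and 48.5% were higher, with medians of 0.01, 0.00 and -0.01. Under TPM, which lowered the median of all genes in IR and Rx, the counts of the 9 were 4, 5 and 7. At an unadjusted p under 0.05, limma gave 0 of the 9 in IR against Con, 2 higher in Rx against Con (TXNRD1 and HMOX1) and 4 higher in Combo against Con, beside 3.69%, 2.36% and 5.49% of tested genes. In Combo against IR it gave 3 (TXNRD1, GCLM and ME1; 5.91% of tested genes) and in Combo against Rx 1 (TXNRD1; 2.81%). With QTP averaged it gave 4 (TXNRD1, HMOX1, GCLM and ME1; 5.21%) and with radiation averaged 1 (TXNRD1; 3.34%). In the interaction 0 of the 9 were under an unadjusted limma p of 0.05, beside 7.63% of tested genes in either direction. Comparisons with Con share the same 3 control libraries, and those with Combo the same 3 Combo libraries, so these counts are not separate evidence. The 9 genes were chosen with earlier results of these data known, and OSGIN1 passed the filter only through the treated groups. The shares over all tested genes are therefore given for description only. The means did not all lie on 1 side of Con: the Combo mean of TXNRD1, at 129 FPKM, was above its Con mean. That of SRXN1, at 2.79, was below its own, but the 95% interval of its log2 difference (-0.42 to 0.02) included 0. Whether SRXN1 moved apart from the others was therefore not settled.

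**Figure D3:**
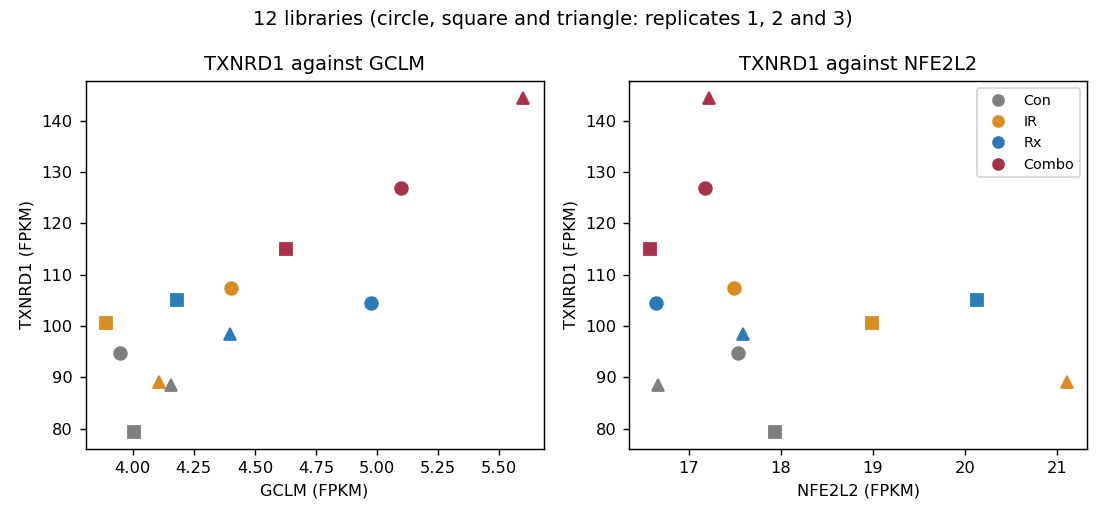
TXNRD1 against GCLM (left) and against NFE2L2 (right), both axes in FPKM and not starting at 0, with 1 point per library, colour for the group and symbol for the replicate. The Combo libraries hold the 3 highest TXNRD1 values in both panels, at 4.63 to 5.60 FPKM of GCLM and at 16.6 to 17.2 FPKM of NFE2L2.

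By likeness of pattern over the 12 libraries (Pearson r of log2(FPKM + 1), a description across libraries that share depth and group), the 5 tested genes closest to TXNRD1 were RND3 (0.96), LMBR1L (0.94), MOSPD2 (0.94), SQSTM1 (0.92) and NMRAL2P (0.91). The 5 closest to NFE2L2 were LRRC42 (0.94), CD81 (0.93), RNF130 (0.93), APMAP (0.93) and RRAS2 (0.92), with no gene in common. TXNRD1 and NFE2L2 had an r of -0.30, and TXNRD1 and GCLM one of 0.85. Of the 36 pairs among the 9 genes, 21 had an r above 0 (median 0.25).

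Around these genes, 133 others of the pathway were listed in 7 groups, 104 of them averaging 1 FPKM or more and called measured below. These lists were drawn up with earlier results of these data known, so their counts and medians are descriptions and not support. Limma with Benjamini-Hochberg adjustment called 1 of the measured genes in 1 comparison. IDH1, which makes cytosolic NADPH from isocitrate, was higher with QTP averaged over both radiation arms (0.43, SE 0.05, adjusted p = 0.0493). It was at 18.8, 20.9 and 20.0 FPKM in Con 1 to 3, at 17.6, 16.9 and 17.5 in IR, at 24.2, 26.1 and 26.6 in Rx and at 25.6, 22.9 and 27.5 in Combo, so that each of the 6 QTP libraries lay above each of the 6 others, as for 0.621% of tested genes. The test called 12 of 13038 genes there, 9 without IR 1, 18 without Rx 1 and 0 to 2 without any other single library. Beside IDH1 the 12 were DHCR7, ERG28, LPIN1, RDH11, FADS1, GAMT, STARD4, MIR635, SC5D, PRXL2A and HSD17B7P2, which these lists do not hold. The call is thus not particular to genes of NADPH supply. The IDH1 call ended under TPM (0.45, limma adjusted p = 0.140), the median of ratios (0.44, limma adjusted p = 0.0522) and no variance trend (0.43, limma adjusted p = 0.0654). It also ended without 9 libraries, left out one at a time (Con 1, Con 2, Con 3, IR 2, IR 3, Rx 2, Rx 3, Combo 1 and Combo 3; 0.40 to 0.45), and over the alternatives its limma adjusted p ran from 0.0125 to 0.194.

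**Figure D4:**
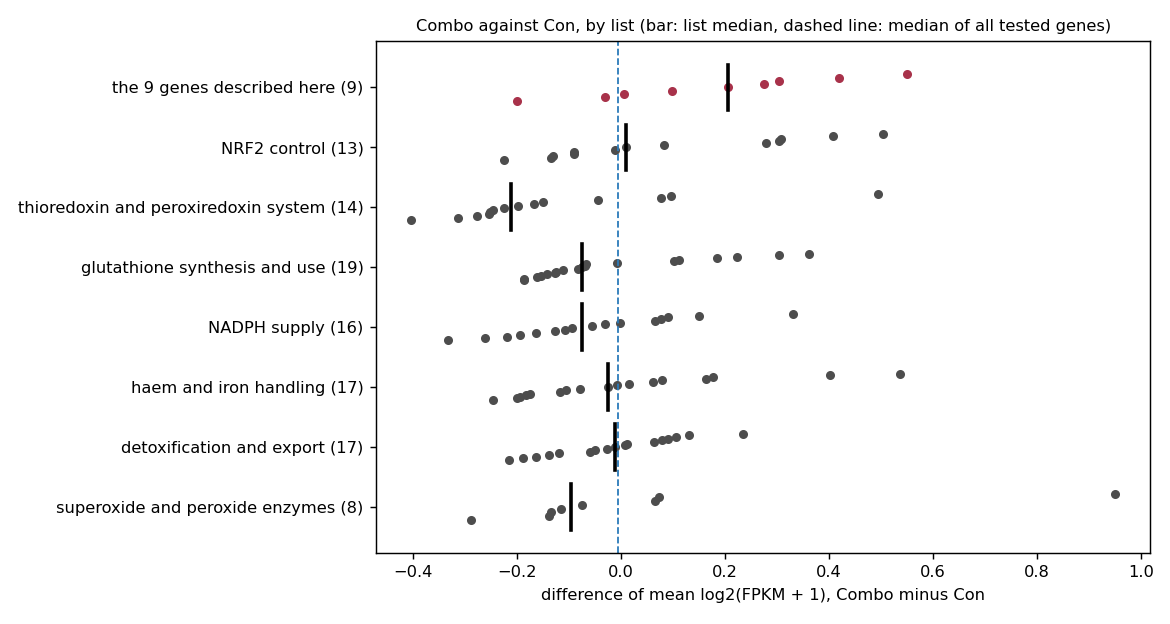
Difference of mean log2(FPKM + 1) between Combo and Con for each measured gene, by list (number of genes in brackets); black bars are list medians and the dashed line is the median of all tested genes (-0.01). The median of the 9 genes is 0.21, that of the thioredoxin and peroxiredoxin list -0.21.

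Of 15 listed partners, inhibitors and relatives of NRF2, 13 were measured, with 7 higher and 6 lower means in Combo than in Con (median 0.01). KEAP1 averaged 14.7 ± 1.21 FPKM in Con and 13.3 ± 0.686 in Combo (SD, n = 3), a log2 difference of -0.13 (SE 0.07). BACH1, a repressor at antioxidant response elements, differed by 0.28 (SE 0.13) and the small MAF gene MAFG by 0.31 (SE 0.11), and 0 of the 13 passed the adjusted limma test. SQSTM1, whose product p62 binds KEAP1, was at 57.2 ± 6.27 FPKM in Con and 81.5 ± 8.76 in Combo (SD, n = 3), a difference of 0.50 (SE 0.11, limma adjusted p = 0.134), and its groups did not overlap.

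In the wider thioredoxin and peroxiredoxin list most means were on the other side of Con from TXNRD1. Of 14 measured genes 11 had a lower mean in Combo than in Con (median -0.21), with 6 lower without overlap, beside 12.8% of all tested genes, and 0 past the adjusted limma test. Thioredoxin itself, TXN, was at 192 ± 6.39 FPKM in Con and 168 ± 11.6 in Combo (SD, n = 3; -0.20, SE 0.12), and the peroxiredoxin PRDX1 differed by -0.15 (SE 0.11). The mitochondrial reductase TXNRD2 differed by -0.28 (SE 0.09). Among the 3 with higher means, SESN2, a stress-induced sestrin, stood at 0.49 (SE 0.09, limma adjusted p = 0.122), from 18.2 ± 1.81 to 26.0 ± 2.32 FPKM (SD, n = 3). In IR against Con 11 of the 14 means were higher (median 0.07), and the interaction had a median of -0.23 beside -0.03 over all tested genes. Under TPM the median of all genes in the interaction moved by 0.18. TXN and PRDX1 were highest of all libraries in IR 3 (247.6 and 158.8 FPKM) and lowest in Combo 3 (158.9 and 112.3). TXNRD2 was highest in Con 2 (16.1) and lowest in Combo 2 (11.1). Medians of this and the other pathway lists were not recomputed without IR 3 and Combo 3.

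Of 19 measured genes of glutathione synthesis and use, 13 had a lower mean in Combo than in Con (median -0.07). The cystine importer SLC7A11 averaged 17.8 ± 3.12 FPKM in Con and 14.9 ± 0.479 in IR, against 20.4 ± 3.36 with QTP alone and 23.0 ± 2.68 with both (SD, n = 3), a difference of 0.36 (SE 0.13) between Combo and Con. GSR, which regenerates glutathione, differed by 0.18 (SE 0.09) and the glutaredoxin GLRX by 0.30 (SE 0.14). Of 16 measured genes of NADPH supply 11 had lower means (median -0.08). The pentose phosphate enzyme PGD differed from Con by 0.24 (SE 0.10) in Rx and by 0.09 (SE 0.10) in Combo, and the mitochondrial malic enzyme ME3 by -0.33 (SE 0.10) in Combo. None of these passed the adjusted limma test (0 of 19 and 0 of 16 in Combo against Con).

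FTH1, the ferritin heavy chain, averaged 110 ± 4.57 FPKM in Con and 126 ± 4.67 in IR, against 148 ± 34.9 with QTP alone and 160 ± 12.6 with both (SD, n = 3), a log2 difference of 0.54 (SE 0.13, limma adjusted p = 0.149) between Combo and Con. FTL, the light chain, differed by 0.40 (SE 0.13), and of the 17 measured haem and iron genes 7 had higher and 10 lower means (median -0.03), BLVRB among them at -0.20 (SE 0.10). Ferritin genes have pseudogene copies, and how the authors assigned shared reads is not given in the sources used here. Of 17 measured genes of detoxification and export, 9 had lower means in Combo (median -0.01), with AKR7A2 at -0.16 (SE 0.06) and AKR1A1 at -0.21 (SE 0.09). The NRF2 targets AKR1B10, AKR1C1, AKR1C2, AKR1C3 and ALDH3A1 were among 11 of 28 listed there that averaged under 1 FPKM. Of 8 measured superoxide and peroxide enzymes 5 had lower means (median -0.09), SOD1 at -0.29 (SE 0.12) and SOD2, of which the first of several identifiers was read, at 0.95 (SE 0.32), and 0 passed the adjusted limma test in any of these 3 lists.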

How the data were processed

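RNA was sequenced from 12 libraries, and the authors deposited 1 table of FPKM for 58735 genes; per the submitters' processing notes the build was hg38. Which aligner, counter, strand setting and library scaling they used is not given in the labels. Each library has 1 step of which FPKM times gene length is a whole multiple (all values, 100%, within 0.01 of a read), which gave back whole reads. Groups and replicate numbers came from the titles.

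Values were analysed as log2(FPKM + 1) where a gene averaged 1 FPKM or more (13038 genes). Group means were fitted over all 12 libraries with limma 3.58.1 (R 4.3.3, variance trend, two-sided, Benjamini-Hochberg over all tested genes, threshold 0.05), after a test on simulated data. The fold changes are on this scale, which understates low genes. The genes and lists were chosen with earlier results of these data known. Named from the other lists were 12 fixed genes, the 2 with the smallest p in Combo against Con per list, and any called gene; 1 of the fixed genes is not reported here. Alternatives were another pseudocount (0.1), no filter or 5 FPKM, TPM, median of ratios, quantiles, no trend, the replicate block, and each library left out; voom and the removal of IR 3 and Combo 3 were added after the data had been seen. Promoter sequences are RefSeq's (GRCh38.p14).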

Additional observations from a re-analysis of the deposited data

How the results depend on the processing

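Of 1115 refits of 52 changes of the 9 genes, most of them printed above, 1087 kept their direction and side of the threshold. Of the rest, 27 changed sign and 1 (TXNRD1 in Combo against IR without IR 1) passed it. Of 429 refits of the 20 other changes of these genes, 363 kept both and 66 changed sign. Much of this agreement was fixed in advance, so the counts do not measure robustness. The filters, no variance trend, the replicate block and the removal of a library outside a comparison leave its estimate as it was. No change of the 9 genes passed the threshold in the main fit, so staying on that side was the default. The sign changes named below are among the 52. With no filter limma called, against Con, 5 genes for IR, 1 for Rx and 5 for Combo, then 6 between Combo and IR, 4 between Combo and Rx, 6 in the interaction, 6 for QTP averaged and 5 for radiation averaged. For QTP averaged (12 genes) it called 24 at 5 FPKM, 23 with quantiles, 34 with voom, and 0 under TPM, the median of ratios, no variance trend, or without IR 3 and Combo 3. Changes that turned sign under TPM were NQO1 (-0.10), GCLM (-0.072) and GCLC (-0.071) in IR against Con, and NFE2L2 (-0.035), NQO1 (-0.081) and ME1 (-0.0019) in Rx against Con, where TPM moved the median of all genes by -0.10 in IR and -0.09 in Rx. With quantiles NQO1 turned in IR (-0.064) and Rx (-0.037) and SRXN1 in Rx (0.0028), with voom NQO1 in IR (-0.000362), and without IR 3 and Combo 3 the TXNRD1 interaction (-0.016), which single libraries moved between 0.057 and 0.22. With each library left out in turn, the calls ran from 0 to 3 in IR against Con, 0 to 956 between Combo and IR, 0 to 3 in the interaction, 0 to 18 for QTP averaged and 0 to 1 for radiation averaged. Against Con in IR, the changes ran from -0.10 to 0.10 for NQO1, -0.011 to 0.061 for GCLM, -0.043 to 0.13 for GCLC and -0.17 to 0.0033 for SRXN1. Against Con in Rx they ran from -0.021 to 0.11 for NFE2L2, -0.14 to 0.11 for NQO1 and -0.059 to 0.042 for SRXN1, and NQO1 in Combo ran from -0.10 to 0.10. HMOX1 in Combo against Rx ran from -0.021 to 0.23. The IDH1 change was 0.40 to 0.47. The replicate block called 90 genes in Combo against Con, 0 of the 9 among them (TXNRD1 adjusted p = 0.0509 by limma), and 3 for radiation averaged. Of 18 same-numbered pairs 11 had correlated deviations above 0.1 (-0.21 to 0.35), 3 of 3 between Con and IR and between Con and Rx but 1 of 3 between Con and Combo. As a hint from the data, 10 of 12 libraries were closest to their own number, but the labels do not say what it marks. The block was not taken as the main design, and in IR and Rx against Con it called 0 genes, as without it. A planned count model with edgeR on the recovered reads and its scaling factors was not run; limma voom on these reads was run in its place. The cause of these differences was not tested, and low reads limit HMOX1, SRXN1 and OSGIN1 most.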

Other observations

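NQO1 ordered the replicate numbers alike in every group, GCLC and ME1 did so only in part, and this was noticed after the values were seen. NQO1 was highest in replicate 2 and lowest in replicate 1 in 4 of 4 groups, at 72.7 and 55.0 FPKM in Con and 79.0 and 57.0 FPKM in Rx. GCLC was lowest in replicate 2 in 4 of 4 groups, and ME1 was highest in replicate 2 in 3 of 4 and lowest in replicate 1 in 3 of 4, with both holding in Con and IR. The labels do not say what a replicate number marks.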
